A study of Saccharomyces cerevisiae with 36 samples.

Results

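Arginine synthesis in budding yeast was followed through the mRNA of 8 genes, ARG2, ARG8, ARG7, ORT1, CPA1, ARG3, ARG1 and ARG4. They were chosen by name, as the genes whose symbol in the array's probe table is that of an enzyme or carrier of the pathway. Each of the 8 is measured by a single probe set, so the 8 genes are 8 of 5763 probe sets tested and 8 of 5449 named genes. The locus tags are YJL071W for ARG2, YOL140W for ARG8, YMR062C for ARG7, YOR130C for ORT1, YOR303W for CPA1, YJL088W for ARG3, YOL058W for ARG1 and YHR018C for ARG4. ARG5,6, which also belongs to the pathway, was not analysed here.

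Yeast makes ornithine from glutamate inside mitochondria, through acetylated intermediates, and exports it to the cytosol. There it is joined to carbamoyl phosphate to give citrulline, then to aspartate, and the product is split into arginine and fumarate. When arginine is present, a repressor complex of Arg80, Arg81, Mcm1 and Arg82 holds several of these genes down and turns on the genes that break arginine down, while the activator Gcn4 raises genes of many amino acid pathways when amino acids run short.

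The study compared 3 haploid W303a strains of mating type a. The wild type (WT) was set against a strain with eco1-W216G and a strain with scc2-D730V. Eco1 acetylates cohesin, the ring complex that holds sister chromatids together, and Scc2 loads cohesin onto chromosomes. Cells growing in rich medium with added amino acids (0 min) were moved to minimal medium without amino acids and sampled after 15, 35 and 55 min, with 3 Affymetrix arrays for each strain and time and 36 arrays in all. All 3 strains share Δbar1, the auxotrophic alleles ura3-1, leu2,3-112, his3-1, trp1-1 and ade2-1, and can1-100, a defective allele of the main arginine permease, and each mutation sits at its native locus beside a hygromycin resistance marker.

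Values are log2 of the deposited probe set intensity, so a difference of 1 is a doubling of signal. Levels of different genes are not set against each other, since they come from different probes. Array medians lay between 10.95 and 11.14, and array 99th percentiles between 14.56 and 14.67. ECO1 mRNA was below WT in eco1-W216G at all 4 times, by 3.28 at 0 min (standard error 0.24, adjusted p = 3.12e-11 from limma) and by 1.03 at 55 min. The receptor of mating type a cells, STE2, had a group mean from 13.97 to 13.98 at 0 min, and the receptor of the opposite type, STE3, was at 6.53 in WT, 8.02 in eco1-W216G and 6.48 in scc2-D730V. The part of this STE3 difference in the results was not tested. The probe sets of ECO1 and STE3 were dim, with 5.26% and 5.66% of all probe sets as dim or dimmer. MF(ALPHA)1 and MF(ALPHA)2, the other markers of the opposite type, are not given here. Every comparison came from 1 limma model fitted to the 12 groups. A gene passed at a Benjamini-Hochberg adjusted p under 0.05 over all 5763 probe sets, with no limit on fold.

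The array of scc2-D730V replicate 1 at 0 min stood apart for these genes before any comparison. Averaged over the 8 genes it lay 0.70 above the mean of its group, whereas the other 35 arrays lay between 0.37 below and 0.18 above theirs. ARG1 read 13.03 on that array against 11.04 and 10.56 on the other scc2-D730V arrays, and ARG3 read 10.91 against 8.76 and 8.69. The excess was 1.06 for ARG4 and 0.25 for ARG8. Over all probe sets the median excess was -0.05, and 5.54% of them were more than 1 log2 unit apart. On this array the 7 histidine synthesis genes averaged 0.33 above their group mean, and the 8 lysine synthesis genes 0.03 above. The regulator, breakdown, transport, and polyamine and pyrimidine genes described below averaged -0.19, -0.10, -0.24 and -0.13 from theirs. Over all probe sets, the array's root mean square difference from the group mean was 0.34. On scc2-D730V replicate 1 it was 0.33, 0.33 and 0.32 at 15, 35 and 55 min, beside at most 0.28 on arrays of other replicates or strains. Ratios at 0 min that involve scc2-D730V are given both with and without scc2-D730V replicate 1. The array also enters the spread that limma shares between groups, in every comparison. Comparisons of eco1-W216G with WT leave it out only in the setting that used just the arrays of the groups compared.

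The first question was how the pathway answered the loss of amino acids in each strain. In WT, 7 of the 8 genes had risen by 15 min and all 8 by 35 and by 55 min, where 37%, 36.7% and 36% of all probe sets rose. In eco1-W216G all 8 rose at each time, against 23.4%, 23.3% and 23.6% of all probe sets, and in scc2-D730V all 8 rose at each time, against 36.4%, 36.7% and 35.9%. The median of the 8 log2 changes from 0 to 55 min was 2.30 in WT, 1.89 in eco1-W216G and 2.09 in scc2-D730V, while the median over all probe sets was 0.02, -0.03 and 0.04. Without scc2-D730V replicate 1 the change in that strain was 4.12 for ARG1 and 1.92 for ARG4, beside 3.40 and 1.59 with it. That of ARG8 moved the other way, from 2.14 to 2.01. The starved arrays lay wholly above the 0 min arrays of the strain for 7, 8 and 8 genes in WT at the 3 times, where 39.2%, 39.6% and 38.1% of all probe sets did so, and for all 8 at each time in eco1-W216G (29.1%, 28.9% and 29.7%) and scc2-D730V (34.7%, 34.2% and 34.5%). The counts of genes that passed were the same without any of the replicates of the strain concerned, except that ARG8 passed in WT at 15 min without WT replicate 2.

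ARG2 encodes N-acetylglutamate synthase, which opens the mitochondrial branch. Its log2 intensity in WT was 10.30, 10.51 and 10.56 at 0 min and 12.48, 12.24 and 12.34 at 55 min, a rise of 1.90 (standard error 0.13, adjusted p = 7.54e-13 from limma). In eco1-W216G it went from 10.46, 10.39 and 10.65 to 11.96, 12.08 and 12.09, a rise of 1.54. No array from before starvation reached the level of any starved array in either strain. ARG2 had 55.7% of its final WT change by 15 min, so its climb was spread over the whole course.

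ARG8 encodes acetylornithine aminotransferase, the next enzyme shown here, and it had the smallest share of its WT change in place by 15 min of the 8. The WT arrays at 0 min read 11.55, 11.83 and 11.71, those at 15 min 12.25, 11.55 and 12.29, those at 35 min 13.49, 12.97 and 13.30 and those at 55 min 14.05, 13.55 and 13.95. The WT values at 0 and 15 min overlapped, with a difference of 0.33 (standard error 0.22, adjusted p = 0.18 from limma). In eco1-W216G the arrays went from 11.24, 11.35 and 11.15 to 13.17, 12.75 and 12.84 over the same interval. The mutant had thus risen by 1.67 at 15 min (standard error 0.22, adjusted p = 6.35e-07), with no overlap between the times. At 15 min ARG8 had 15.4% of its final WT change, 66.4% of its final change in eco1-W216G and 38.2% in scc2-D730V.

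ARG7 encodes ornithine acetyltransferase, which releases ornithine and recycles the acetyl group. ARG7 went in WT from 11.89, 11.45 and 11.77 at 0 min to 13.75, 13.66 and 13.85 at 15 min, 4.15-fold (adjusted p = 3.62e-13 from limma). ORT1, the carrier that takes ornithine out of the mitochondrion, went from 10.73, 10.52 and 10.58 to 12.85, 12.77 and 12.93, 4.73-fold (adjusted p = 9.68e-13). Both were early genes, with 84.0% and 86.0% of their WT change in place by 15 min. CPA1, the small subunit of the carbamoyl phosphate synthetase that serves arginine, went in WT from 12.85, 12.44 and 12.95 at 0 min to 14.66, 14.65 and 14.71 at 55 min, a rise of 1.93 (standard error 0.15, adjusted p = 7.04e-12). Every starved array of these 3 genes lay above every array of the same strain at 0 min.

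ARG3, ornithine carbamoyltransferase, had the largest change of the 8 in each strain. The WT arrays at 0 min read 8.76, 8.34 and 8.59, those at 15 min 13.11, 12.09 and 12.78, those at 35 min 13.88, 13.43 and 13.90 and those at 55 min 14.16, 14.01 and 14.32. The WT change to 55 min was 5.60 (standard error 0.35, adjusted p = 4.9e-14 from limma), or 48.5-fold. It ranked 17 among the 5763 probe sets by the size of the increase in WT and 6 in eco1-W216G, where the change was 4.28, or 19.4-fold. In scc2-D730V it was 4.79, and 5.45 without the arrays of replicate 1 at any time.

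ARG1, argininosuccinate synthetase, followed with a WT change of 4.10 to 55 min (standard error 0.32, adjusted p = 5.36e-12 from limma). Its WT arrays read 11.39, 10.67 and 10.49 at 0 min and 14.54, 14.41 and 14.60 at 15 min. By then 89.4% of the change was in place. ARG4, argininosuccinate lyase, which makes arginine itself, was as early, at 89.9%, and went in WT from 12.82, 12.38 and 13.00 to 14.50, 14.43 and 14.49. After starvation ARG1 and ARG4 read between 14.41 and 15.00 in WT. The array 99th percentile was at most 14.67, and the part of signal near the top of the scale in their flat late course was not tested.

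**Figure D1:**
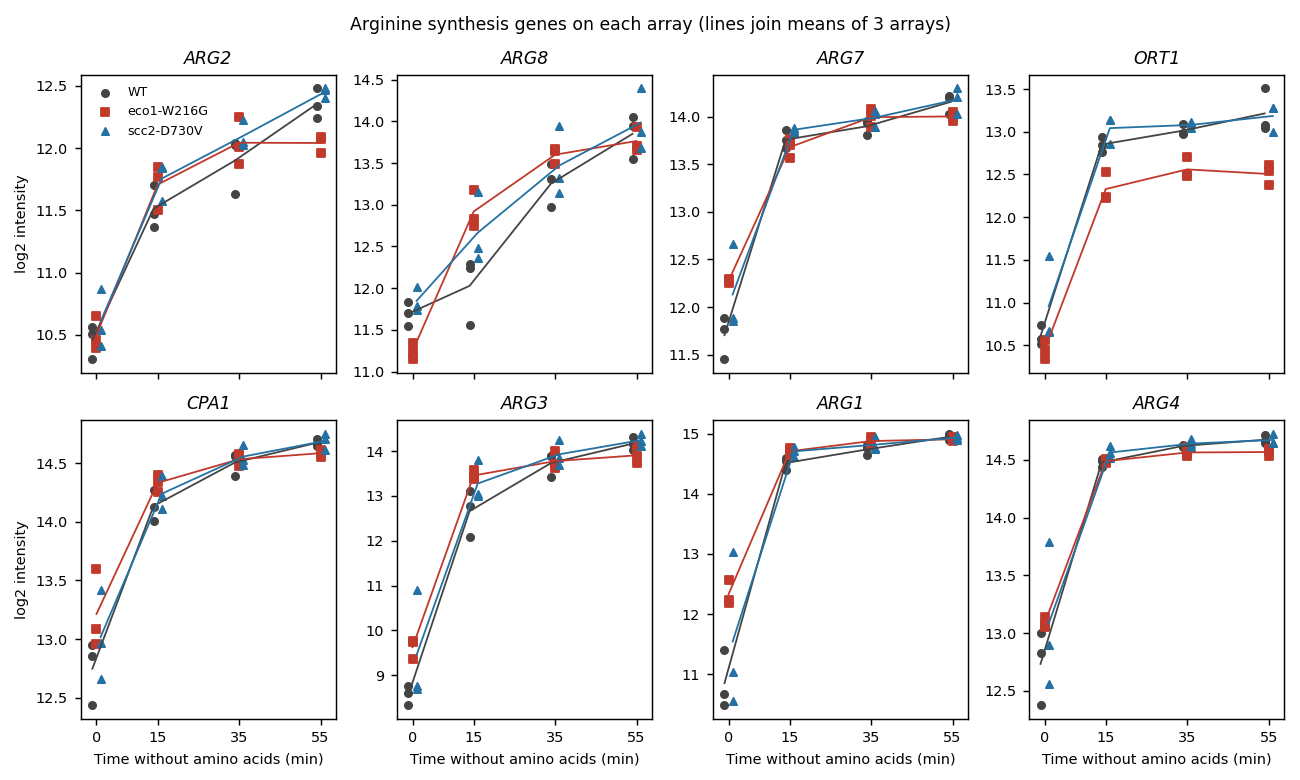
Log2 intensity of each of the 8 arginine genes on every array (vertical axis) by minutes after amino acids were removed (horizontal axis), with a point for each array, a line through the mean of 3 arrays and a colour for each strain. ARG3 climbs from 8.56 to 14.17 in the WT mean and ARG8 lags in WT at 15 min, where its mean is 12.03 against 12.92 in eco1-W216G.

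Between 15 and 55 min the further change differed among the genes. In WT 5 of 8 rose further, where 20.2% of all probe sets did, and these were ARG8 by 1.82, ARG3 by 1.51, ARG2 by 0.84, CPA1 by 0.54 and ARG7 by 0.39. ARG7 was not called without any of the WT replicates in turn (adjusted p from 0.0782 to 0.195 from limma), and CPA1 was not without WT replicate 1 (adjusted p = 0.0664). ORT1, ARG1 and ARG4 did not pass, with differences of 0.36, 0.43 and 0.20, though ORT1 did with the replicate block (adjusted p = 0.0421). ARG1 passed with only the arrays compared and with array weights (limma, adjusted p from 0.0185 to 0.361 over 11 settings). The spread in its test draws on all groups. The standard deviation of ARG1 was 1.31 in scc2-D730V at 0 min, beside 0.098 and 0.053 in WT at 15 and 55 min. In scc2-D730V 4 rose further, ARG8, ARG3, ARG2 and CPA1, against 19% of all probe sets, and ARG3 and CPA1 did not pass without scc2-D730V replicate 2 or 3 (adjusted p of at most 0.15). In eco1-W216G ARG8 alone passed, with 0.85 (adjusted p = 0.0387), against 1.53% of all probe sets, and it did not pass without any of the eco1-W216G replicates in turn (adjusted p from 0.118 to 0.489). The mean over the 8 genes went from 13.45 to 13.79 in eco1-W216G and from 13.24 to 14.00 in WT.

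**Figure D2:**
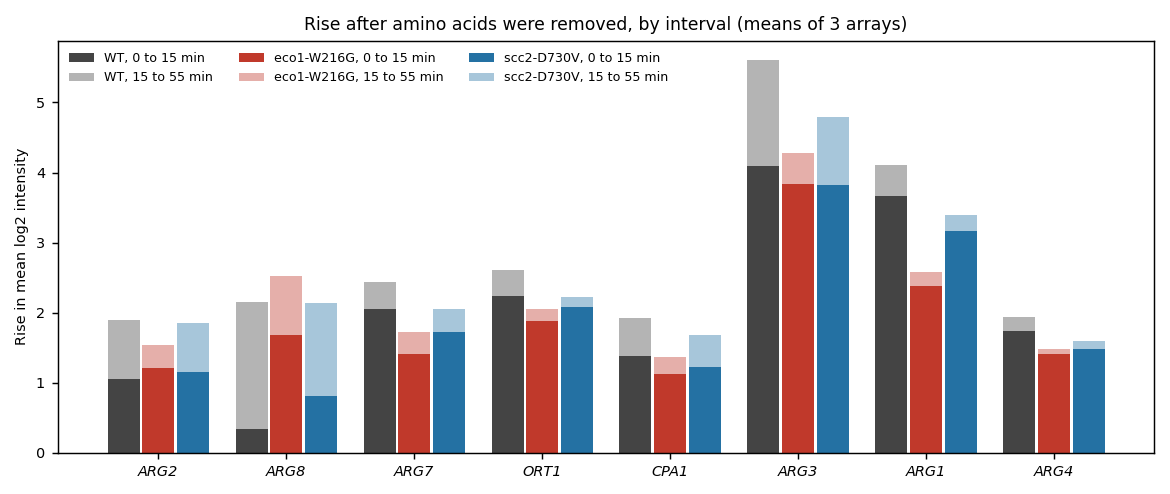
Rise in log2 intensity (bar length, from 0) of each arginine gene in each strain, split into the part from 0 to 15 min and the part from 15 to 55 min. ARG8 in WT gains 0.33 in the early interval and 1.82 in the later interval, and ARG1 gains 3.67 and 0.43.

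The next question was whether the cohesin mutants held the pathway at a different level. In rich medium eco1-W216G had 4 of 8 genes above WT and 0 below, while 13.7% of all probe sets were higher and 11.9% lower. These were ARG1, ARG3, ARG7 and CPA1. The median log2 ratio of the 8 was 0.41, beside -0.08 over all probe sets. The eco1-W216G arrays lay wholly above the WT arrays for 5 of 8 genes, where 20.5% of all probe sets did so, and wholly below for ARG8, where 27.9% did so.

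ARG1 read 12.19, 12.57 and 12.23 in eco1-W216G and 11.39, 10.67 and 10.49 in WT at 0 min, a log2 ratio of 1.48 with a standard error of 0.32 (limma, adjusted p = 0.000945), or 2.79-fold. ARG3 read 9.37, 9.76 and 9.75 against 8.76, 8.34 and 8.59, a ratio of 1.06 (standard error 0.35, adjusted p = 0.0253). For both of them no mutant array fell among the WT arrays. ARG7 read 12.25, 12.28 and 12.30 against 11.89, 11.45 and 11.77, a ratio of 0.57 (standard error 0.14, adjusted p = 0.00353). CPA1 read 12.96, 13.09 and 13.60 against 12.85, 12.44 and 12.95, a ratio of 0.47 (standard error 0.15, adjusted p = 0.0242). The CPA1 arrays of the strains almost touched, at 12.96 and 12.95.

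The calls of ARG1 and ARG7 in rich medium were kept without any replicate of the strains compared. ARG3 was not called without WT replicate 2 or 3 or without eco1-W216G replicate 2 or 3 (adjusted p of at most 0.122 from limma), and CPA1 was not called without WT replicate 2 or eco1-W216G replicate 3 (adjusted p of at most 0.289, ratio of at least 0.27). The CPA1 call was also lost with only the arrays compared, with cyclic loess and at a limit of 1.4-fold, with an adjusted p of at most 0.125 over 11 settings. ARG4 read 13.05, 13.14 and 13.07 in eco1-W216G and 12.82, 12.38 and 13.00 in WT, a ratio of 0.35 that did not pass (adjusted p = 0.128). ARG8 read 11.24, 11.35 and 11.15 against 11.55, 11.83 and 11.71, a ratio of -0.45 (adjusted p = 0.137). The ratio of ARG2 was 0.04 and that of ORT1 was -0.16, and neither passed.

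After amino acids were removed, 2 of 8 genes passed in eco1-W216G against WT at 15 min and 1 of 8 at 35 and 55 min. Of all probe sets, 41.5%, 46.5% and 37.9% passed in either direction at these times, a larger share than of the 8 genes. At 15 min ARG8 was higher in eco1-W216G, at 13.17, 12.75 and 12.84 against 12.25, 11.55 and 12.29, a log2 ratio of 0.89 with a standard error of 0.22 (limma, adjusted p = 0.00197). It was 1 of 8 genes higher, beside 18.8% of all probe sets, and it passed without any replicate in turn. ARG3 at 15 min lay above WT on all mutant arrays, at 13.58, 13.42 and 13.37 against 13.11, 12.09 and 12.78, with a ratio of 0.80 that did not pass (adjusted p = 0.0672). It passed with the replicate number as a block (adjusted p = 0.0448) and in 4 of 11 other settings in all, with an adjusted p from 0.0017 to 0.14. The mutant arrays lay wholly above WT for ARG8, ARG3 and ARG1 at 15 min, 3 of 8 where 24% of all probe sets did so. At 35 and 55 min 0 of 8 were higher, where 19.9% and 16.8% of all probe sets were. ARG8 itself did not pass later, with a ratio of 0.35 at 35 min and -0.09 at 55 min.

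ORT1 went the other way. In starved cells it was the gene of the set that was lower in eco1-W216G than in WT at every starved time, 1 of 8 beside 22.7%, 26.6% and 21% of all probe sets at 15, 35 and 55 min. At 55 min it read 12.54, 12.61 and 12.37 against 13.51, 13.08 and 13.05, a log2 ratio of -0.71 with a standard error of 0.16 (limma, adjusted p = 0.00119). The 15 min ratio was -0.52 (adjusted p = 0.011) and the 35 min ratio -0.45 (adjusted p = 0.023), with the arrays wholly below WT at all of these times, as they were for 32.7%, 34.6% and 30.9% of all probe sets. The 55 min call was kept without any replicate in turn. At 15 min it did not pass without WT replicate 3 or without eco1-W216G replicate 2 or 3 (adjusted p of at most 0.0591), and at 35 min it passed only without eco1-W216G replicate 2 (adjusted p without the others of at most 0.0884).

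At 55 min all 8 ratios of eco1-W216G to WT were below 0, from -0.71 for ORT1 to -0.04 for ARG1, with a median of -0.13 beside -0.09 over all probe sets. With arrays centred on their medians ARG1 was at 0.021 and the other 7 stayed below 0. The mutant arrays lay wholly below WT for ORT1, ARG2, CPA1 and ARG4, 4 of 8 genes, where 30.9% of all probe sets did so. Of these ORT1 passed. ARG2 read 11.96, 12.08 and 12.09 against 12.48, 12.24 and 12.34, with a ratio of -0.31 (adjusted p = 0.0673 from limma, 0.0421 with the replicate block). The ratio was -0.09 for CPA1 and -0.11 for ARG4.

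**Figure D3:**
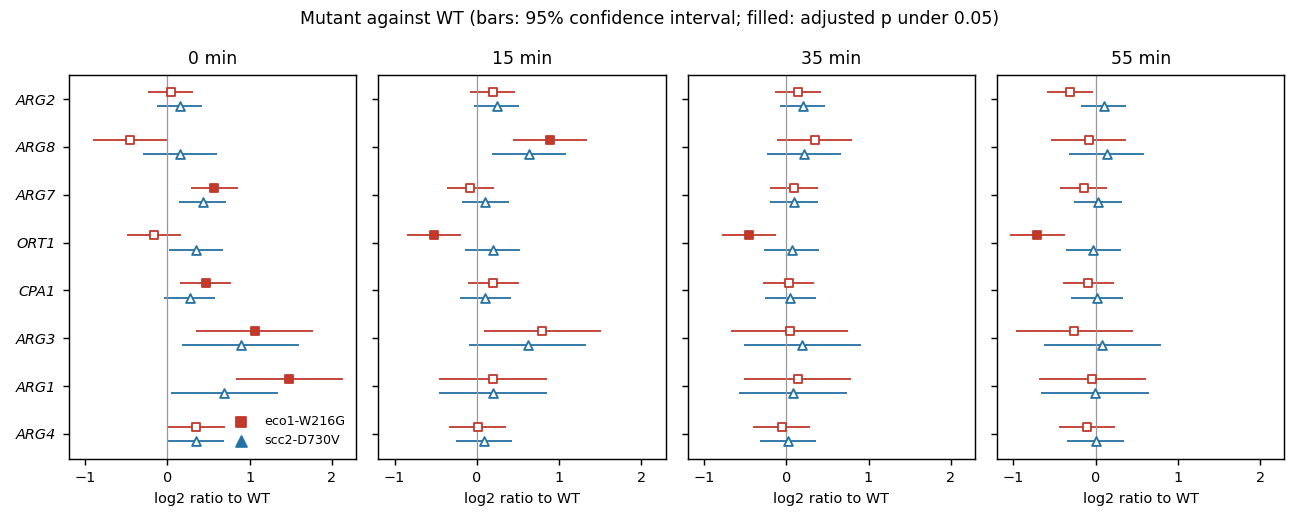
Log2 ratio of each mutant to WT (horizontal axis) for each arginine gene (vertical axis), in a panel for each time, with a square for eco1-W216G and a triangle for scc2-D730V, bars for the 95% confidence interval from limma and filled points for an adjusted p under 0.05. ARG1 starts 1.48 above WT in eco1-W216G and ends at -0.04, ORT1 falls to -0.71, and no point of scc2-D730V is filled.

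The change from 0 min was compared between eco1-W216G and WT directly, as an interaction in the limma model. By 55 min 4 of 8 genes had risen less in the mutant, beside 17.1% of all probe sets with a lower change, and 0 had risen more, beside 15.6%. ARG1 rose by 2.58 in eco1-W216G and 4.10 in WT, a difference of -1.52 (standard error 0.45, adjusted p = 0.0105). ARG3 rose by 1.32 less (adjusted p = 0.0398), ARG7 by 0.72 less (adjusted p = 0.00675) and CPA1 by 0.55 less (adjusted p = 0.0479). These are the 4 genes that stood higher in eco1-W216G in rich medium, and both comparisons use the same arrays from 0 min. ARG7 kept its call without each replicate in turn. ARG3 and CPA1 lost theirs without any of the 6 replicates (adjusted p of at most 0.266), and ARG1 without WT replicate 2 or 3 or eco1-W216G replicate 2 (adjusted p of at most 0.067).

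ARG8 differed in the opposite direction. From 0 to 15 min it rose by 1.67 in eco1-W216G and changed by 0.33 in WT, a difference of 1.34 (standard error 0.31, adjusted p = 0.00132 from limma). This call was kept without each replicate in turn. At 35 min the difference was 0.80 (adjusted p = 0.0417), called without WT replicate 1 but not without any other replicate, and at 55 min it was 0.36 (adjusted p = 0.39). Higher changes were called for 17.4% of all probe sets at 15 min and 19.8% at 35 min. ARG1 changed less than in WT at both times, by -1.29 and -1.34, and ARG7 at 15 min by -0.65, where 18.1% and 21.7% of all probe sets had a lower change. The ARG1 calls were kept only without WT replicate 1 (adjusted p without the others of at most 0.14), and the 15 min call of ARG7 was lost without WT replicate 2 or eco1-W216G replicate 2 (adjusted p of at most 0.0562).

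In scc2-D730V 0 of 8 genes passed against WT at any time, with 0% of all probe sets higher and 0.0347% lower at each time. All 8 ratios were above 0 at 0 min, from 0.15 to 0.89, and 5 of 8 had an unadjusted p under 0.05 in limma, where 1.68% of all probe sets did. ARG3 had 0.89 and ARG1 0.69. Without scc2-D730V replicate 1 the ARG3 ratio was 0.16 and the ARG1 ratio -0.05, and the 8 ratios lay between -0.05 and 0.16. The high ratios of scc2-D730V in rich medium thus rest on the array that stood apart. At 15 min ARG8, ARG1 and ARG4 lay above WT on all scc2-D730V arrays, 3 of 8 beside 5.19% of all probe sets. ARG8 read 13.16, 12.36 and 12.48 against 12.25, 11.55 and 12.29, a ratio of 0.64 (unadjusted p under 0.05 for this gene of the 8, where 3% of all probe sets had one), and 0.39 without scc2-D730V replicate 1. No difference in the change from 0 min passed between scc2-D730V and WT, for the 8 genes or for any probe set. In that test 0 of 8 had an unadjusted p under 0.05. Of all probe sets, 1.32%, 1.96% and 0.729% had one at 15, 35 and 55 min, so 0 of 8 is near the share over the array.

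The comparisons of both mutants use the same WT arrays, so the mutants were also set against each other. At 0 min ARG8 was lower in eco1-W216G than scc2-D730V by 0.60 and ORT1 by 0.51, 2 of 8 genes beside 9.37% of all probe sets, and 0 of 8 were higher, beside 12.9%. Without scc2-D730V replicate 1 ORT1 no longer passed, at -0.21 (adjusted p = 0.251 from limma), with 12.7% of all probe sets lower in that fit. In it 5 genes were higher in eco1-W216G, beside 15.1% of all probe sets, ARG1 by 1.53, ARG3 by 0.90, ARG7 by 0.41, CPA1 by 0.40 and ARG4 by 0.36. With that array the ARG1 ratio was 0.79 (adjusted p = 0.0758) and that of ARG3 0.17. ARG8 at 0 min passed only without scc2-D730V replicate 1 among the replicates left out (adjusted p without the others of at most 0.2), and ORT1 did not pass without eco1-W216G replicate 2 or 3 either.

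The lower ORT1 level of eco1-W216G relative to scc2-D730V extended to the starved times, by 0.71 at 15 min, 0.52 at 35 min and 0.68 at 55 min, beside 20.3%, 22.7% and 17.9% of all probe sets. At 55 min the scc2-D730V arrays read 13.27, 13.00 and 13.28 and the eco1-W216G arrays 12.54, 12.61 and 12.37 (adjusted p = 0.00245 from limma). ORT1 kept its call at 15 and 55 min without each replicate in turn and lost it at 35 min without eco1-W216G replicate 1 or 3 (adjusted p of at most 0.0587). ARG2 was lower at 55 min, by 0.41 (adjusted p = 0.0212), and did not pass without eco1-W216G replicate 1 or 3 or scc2-D730V replicate 3 (adjusted p of at most 0.0994).

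The 8 genes moved alike over the 12 group means, as a description without a test, since the groups share arrays of 3 strains on a common time course. Pearson's r of a gene with the mean of the other 7 was 0.997 for ARG3, 0.995 for CPA1, 0.994 for ARG7, 0.988 for ARG4, 0.981 for ARG2, 0.972 for ARG1, 0.947 for ORT1 and 0.869 for ARG8. ARG8 and ARG1 were the least alike of the 28 gene pairs, with an r of 0.808. Outside the set, the 8 genes with the highest r to the mean of the arginine genes ran from NIT1 at 0.998 to MCH4 at 0.995. Between them came HOM3, aspartate kinase of the threonine and methionine branch, HIS5 of histidine synthesis, YIL165C, ADE12 of purine synthesis, STR2 of sulphur amino acid synthesis and SER1 of serine synthesis. NIT1 had a group mean of 10.02 in WT and 10.52 in eco1-W216G at 0 min, and 14.05 and 13.84 at 55 min.

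Of the regulators, GCN4 mRNA, whose product is made mostly by control of translation, did not pass between strains or against 0 min in WT or eco1-W216G. Its ratio of eco1-W216G to WT was -0.01 at 0 min and 0.14 at 15 min (standard error 0.07 for each). GCN4 read near the array 99th percentile in every group, and the part of this in its flat course was not tested. ARG80 and ARG81, the arginine-specific repressor subunits, fell in WT at 15 min by 0.91 and 0.58 (adjusted p = 0.00649 and 0.00122 from limma). In eco1-W216G their differences at 15 min were -0.15 and -0.13 and did not pass, and the change did not differ between the strains by test (adjusted p = 0.151 and 0.104). MCM1, the shared subunit, fell by 55 min by 1.41 in WT and 1.01 in eco1-W216G. Of the 6 regulators, 0 passed between eco1-W216G and WT at 0 min, where 13.7% of all probe sets were higher and 11.9% lower.

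ARG82, the inositol polyphosphate kinase of the same complex, moved in opposite directions in WT and eco1-W216G. Its probe set was dim, with a mean log2 intensity of 8.29, and 7.77% of all probe sets were as dim or dimmer. At 15 min ARG82 rose by 0.95 in WT (standard error 0.20, adjusted p = 0.000116 from limma) and fell by 0.61 in eco1-W216G (adjusted p = 0.0132). The difference between these changes was -1.56 (adjusted p = 0.000114), and in scc2-D730V the gene rose by 1.02. It stood 1.16 below WT in eco1-W216G at 15 min and 0.75 below at 55 min. GCN2, the kinase that senses uncharged tRNA, was 0.39 below WT in eco1-W216G at 55 min (adjusted p = 0.0131).

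Of the breakdown genes, CAR1 and CAR2 are those that arginine normally induces. CAR1, arginase, read in WT 12.96, 12.71 and 13.03 before starvation, then 14.18, 14.21 and 14.26 at 15 min, and later 11.52, 11.60 and 11.98 at 55 min. It thus rose by 1.31 and then fell to 1.20 below its starting level (adjusted p = 4.29e-07 and 2.05e-06 from limma). In eco1-W216G CAR1 started at 13.46, 13.18 and 13.78, read 13.25, 13.79 and 13.61 after 15 min, and ended at 13.08, 12.95 and 13.22. Neither difference passed, at 0.08 and -0.39. The change to 15 min differed from WT by -1.24 (adjusted p = 0.000594) and that to 55 min by 0.81 (adjusted p = 0.0197). In scc2-D730V CAR1 rose by 1.03 at 15 min and was 1.02 below its start at 55 min.

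PUT1, proline oxidase of the route that uses the carbon and nitrogen of arginine, was already high in eco1-W216G in rich medium. It read 12.77, 12.36 and 13.33 there at 0 min and 10.45, 9.32 and 10.001 in WT, a log2 ratio of 2.90 with a standard error of 0.30 (limma, adjusted p = 1.88e-08). In WT PUT1 rose by 3.28 by 15 min, whereas the difference in eco1-W216G was 0.47 (adjusted p = 0.192), and the changes differed by -2.81 (adjusted p = 1.15e-05). PUT2, the enzyme after it, was lower in eco1-W216G than in WT at 55 min by 0.75. CAR2, ornithine aminotransferase, rose in WT at 15 min by 2.02 and had a difference of 0.87 in eco1-W216G that did not pass (adjusted p = 0.0541). These changes of CAR2 differed by -1.15, which did not pass either (adjusted p = 0.0928). PRO3, the last enzyme of proline synthesis, did not pass between eco1-W216G and WT at any time. Of the 5 breakdown genes, 2 stood above WT in eco1-W216G at 0 min, beside 13.7% of all probe sets. In WT 4 rose by 15 min, beside 37%, and in eco1-W216G 0 rose, beside 23.4%. The change differed between these strains by test for CAR1, PUT1 and PUT2 but not for CAR2.

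**Figure D4:**
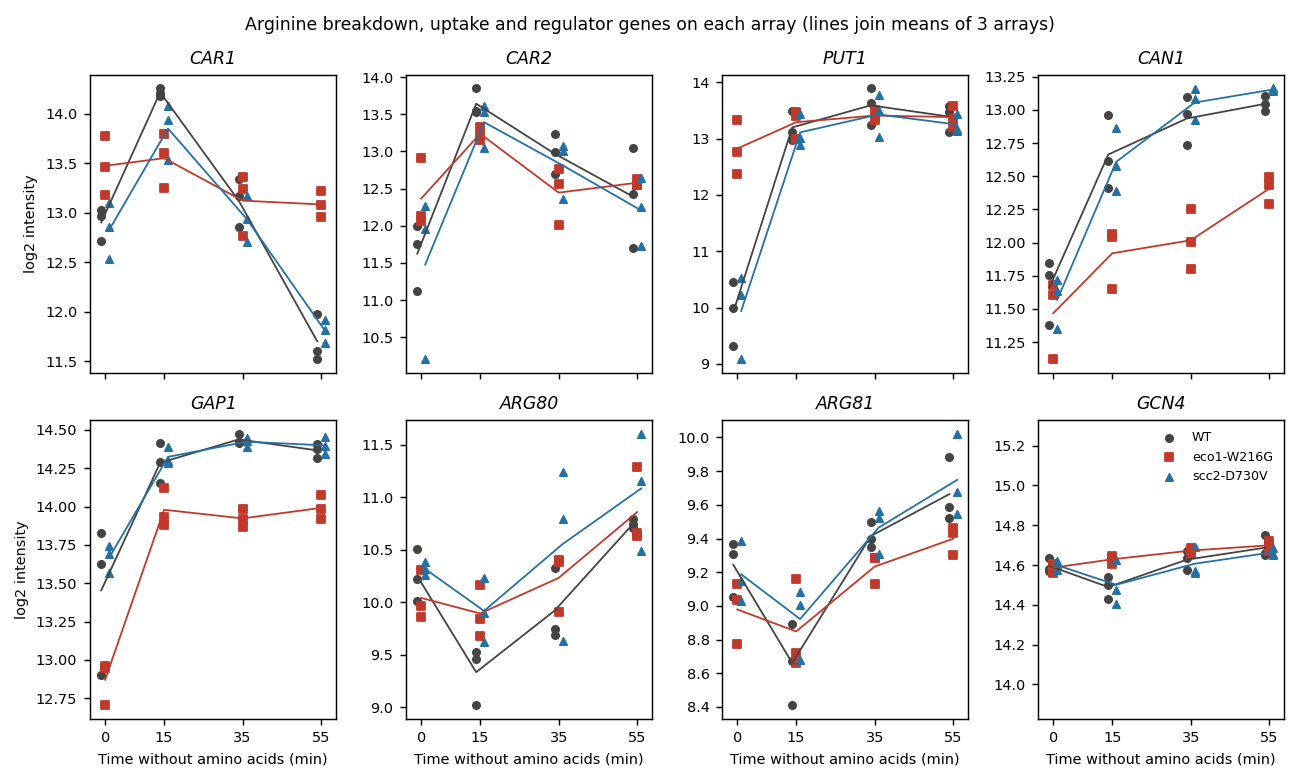
Log2 intensity on every array (vertical axis) of genes of arginine breakdown (CAR1, CAR2, PUT1), uptake (CAN1, GAP1) and regulation (ARG80, ARG81, GCN4) by minutes of starvation (horizontal axis), with a point for each array and a line through the mean of 3 arrays in each strain. The WT change of CAR1 is 1.31 at 15 min and -1.20 at 55 min, while in eco1-W216G it is 0.08 and -0.39.

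Of the 5 transport genes, which include the mitochondrial carrier AGC1, 3 were lower in eco1-W216G than in WT at 15 min. The count was 5 at 35 min and 4 at 55 min, beside 22.7%, 26.6% and 21% of all probe sets at the 3 times. ALP1 had a ratio of 0.10 at 15 min and -0.61 at 55 min, and GAP1 -0.31 at 15 min, and these did not pass (adjusted p = 0.788, 0.0535 and 0.0733 from limma). At 35 min the genes were below WT, CAN1 by 0.92, ALP1 by 0.93, GAP1 by 0.52, DUR3 by 1.36 and AGC1 by 0.67. CAN1, whose product is the arginine permease that can1-100 disables, read 12.25, 11.80 and 12.003 in eco1-W216G and 13.10, 12.74 and 12.97 in WT (adjusted p = 6.1e-05 from limma). The general amino acid permease gene GAP1 was also lower at 0 min, by 0.58 (adjusted p = 0.00226). ALP1, a close relative of CAN1, was higher in eco1-W216G at 0 min by 1.403 (adjusted p = 0.000108), and whether its probes also bind CAN1 RNA was not tested. DUR3, the urea carrier, had a ratio of 0.41 at 0 min that did not pass. AGC1, the aspartate and glutamate carrier of mitochondria, was lower in eco1-W216G than in WT at each starved time, by 0.50, 0.67 and 0.43. In scc2-D730V 0 of these 5 genes passed against WT at any time.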

How the data were processed

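RNA of 3 strains at 4 times was measured on 36 arrays, 3 per strain and time. The paper describes 3 independent cultures per strain that were sampled over the time course, so the times of a strain are repeated samples of its cultures. The labels number the replicates 1 to 3 without naming the culture, and the reported model treats the arrays as independent. The authors normalized the arrays by RMA (background correction, quantile normalization and a summary per probe set) and deposited an intensity on a linear scale. No source used here gives the RMA version. Log2 was taken of the deposited intensity, for every array. Of 5814 probe sets, 51 controls were left out and 47 reporter were kept among the 5763 tested. The depth of an array is not a count, and the number of arrays limits the precision.

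R 4.3.3 and limma 3.58.1 were used, fitting 12 group means per probe set (24 residual degrees of freedom, 3.71 from the prior). Within each of 30 contrasts, Benjamini-Hochberg adjustment ran over all probe sets tested. These steps were first tested on simulated data. The genes named are all 8 arginine genes, the regulator, breakdown and transport genes measured, up to 3 genes of the histidine and lysine lists with the smallest p, the 8 genes most like the mean of the arginine genes over 12 group means, and ECO1, SCC2 and BAR1 as checks. STE2 and STE3 come from the markers of mating type. Members and lists were chosen with earlier results of these data known. ARG5,6 and DUR1,2 carry no name in the probe table and were not analysed here. Gene names come from the array's probe table and locus tags from RefSeq genes of assembly R64.

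Alternatives took only the groups compared, other normalizations, a filter on dim probe sets, another variance prior, array weights, blocks, another adjustment, other thresholds and each replicate left out. The labels do not say that replicate numbers pair the arrays, so the reported model has no block, and the fit with the block is an alternative. Promoter motifs and protein sequences were not analysed here.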

Additional observations from a re-analysis of the deposited data

Results flagged for a closer look

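For 9 values, the change from 0 min differed between eco1-W216G and WT by limma's test of the difference itself. The difference in change, eco1-W216G minus WT, from 0 to 15 min was 1.34 for ARG8, -1.29 for ARG1 and -0.65 for ARG7. From 0 to 35 min it was 0.80 for ARG8 and -1.34 for ARG1. From 0 to 55 min it was -1.52 for ARG1, -1.32 for ARG3, -0.72 for ARG7 and -0.55 for CPA1. The adjusted p lay between 0.00132 for ARG8 at 15 min and 0.0479 for CPA1 at 55 min. The 8 genes gave 0 such differences between scc2-D730V and WT, where 0% of all probe sets passed. There 0 of the 8 had an unadjusted p under 0.05, beside 1.32%, 1.96% and 0.729% of all probe sets at 15, 35 and 55 min. ARG1, ARG3, ARG7 and CPA1 stood above WT in eco1-W216G at 0 min, and the same arrays enter the change, so a higher start and a smaller change are not separate measurements here. The array 99th percentile lay between 14.56 and 14.67, and ARG1 and CPA1 lay near it in every strain after starvation. The part of a limit at the top of the signal scale was not tested.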

How the results depend on the processing

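Of the 240 values for 8 genes in 30 comparisons, 104 were called. For the 133 called in any setting, 1821 recomputed values kept direction and call, 124 lost the call, 52 gained it and 6 changed sign. Of the 107 never called, 44 changed sign in some setting. The cause of each was not tested. The 6 were uncalled values of eco1-W216G against scc2-D730V at 0 min, where ARG4 became -0.077 with cyclic loess, -0.022 without eco1-W216G replicate 2, and -0.26 and -0.087 without scc2-D730V replicates 2 and 3, and ARG3 became -0.18 and -0.21 without these 2. Without scc2-D730V replicate 1 they were 0.36 for ARG4 and 0.90 for ARG3. The counts of genes that rose from 0 min stayed within 1.5 times in every setting, and so did all 30 counts with the dimmest probe sets left out or with an intensity trend.

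Some counts of genes called moved by more than 1.5 times. Shares of all probe sets called are not given for these settings. The counts therefore show how the calls depend on the setting and are not a result about these genes. For eco1-W216G against WT, the 35 min count of 1 became 0 with cyclic loess, 0 with p adjusted over a family of contrasts, 0 at 1.4-fold and 2 with array weights. The 55 min count of 1 became 4 with array weights and, in the fit with the replicate block, 2. For eco1-W216G against scc2-D730V, the 0 min count of 2 became 1 with only the arrays compared, 1 with arrays centred on their medians and 4 with array weights, the 15 min count of 1 became 2 with array weights, the 35 min count of 1 became 0 with cyclic loess, and the 55 min count of 2 became 1 with median centring, with cyclic loess and at 1.4-fold. For scc2-D730V against WT, adjustment over the family gave 1 at 0 min and 1 at 15 min. In eco1-W216G from 15 to 55 min array weights gave 2. For the change in eco1-W216G minus that in WT, the 35 min count of 2 became 4 with only the arrays compared, 7 with array weights, 5 with the culture as a random block and 1 with the family adjustment, and the 55 min count of 4 became 2 with cyclic loess, 7 with array weights and 2 with the family adjustment. At an adjusted p under 0.001, eco1-W216G against WT had 1, 0, 0 and 0 at the 4 times, eco1-W216G against scc2-D730V had 0 at each, the 3 differences in change had 0, and the counts from 15 to 55 min were 2 in WT, 0 in eco1-W216G and 2 in scc2-D730V.

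The counts without each replicate in turn also lack a share of all probe sets, apart from the fit without scc2-D730V replicate 1 described above. In these fits eco1-W216G against WT had 2 to 4 genes at 0 min, 1 to 2 at 15 min and 0 to 1 at 35 min. Against scc2-D730V it had 0 to 6, 1 to 2, 0 to 1 and 1 to 2 at the 4 times. From 15 to 55 min the counts were 3 to 4 in WT, 0 in eco1-W216G and 2 to 4 in scc2-D730V, and for the differences in change 1 to 3, 0 to 2 and 1 to 2.

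The labels do not say what a replicate number shares. Residuals of same-numbered arrays correlated over 0.1 in 40 of 54 pairs within a strain and 29 of 36 between strains, and in all 3 pairs for 9 of 18 and 8 of 12 comparisons of groups. The array most alike carried the same number in 42 of 54 and 27 of 36 cases, where 18 and 12 would without pairing. This is a hint from the data, since the labels do not link the arrays of a culture. The replicate block ended no call. It added ARG3 at 15 min and ARG2 at 55 min for eco1-W216G against WT, ORT1 in WT from 15 to 55 min (adjusted p = 0.0448, 0.0421 and 0.0421 from limma), and the differences in change of ARG7 to 35 min and ORT1 to 55 min (adjusted p = 0.0329 and 0.0326). It moved no other count by more than 1.5 times. Since each gene has a single probe set, no choice among probe sets arose. The motif search was not run.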

Other observations

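Histidine and lysine synthesis are given beside the arginine genes as descriptions. Of 7 histidine genes, 6 rose and 1 fell in WT by 55 min, beside 36% and 35.2% of all probe sets, with a median change of 1.502. HIS5, an aminotransferase of the pathway, rose by 2.98 (standard error 0.16, adjusted p = 4.51e-15 from limma), HIS3 by 3.09 and HIS4 by 2.73, and HIS6 was the gene that fell. In rich medium 2 of the 7 stood above WT in eco1-W216G, HIS5 by 0.79 (adjusted p = 0.000591) and HIS4 by 0.73 (adjusted p = 0.0066), where 13.7% of all probe sets were higher. All strains carry his3-1, so HIS3 reports RNA of a mutant allele.

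Of 8 lysine genes, 5 rose and 1 fell in WT by 55 min, beside the same 36% and 35.2%, with a median change of 0.82. LYS1, saccharopine dehydrogenase, stood 1.02 above WT in eco1-W216G at 0 min (standard error 0.17, adjusted p = 4.03e-05 from limma). At 15 min eco1-W216G had 6 of the 8 above WT and 1 below, beside 18.8% and 22.7% of all probe sets. The median ratio was 0.57, beside 0.19 for the 8 arginine genes and -0.08 over all probe sets. LYS4, homoaconitase, had a ratio of 1.04 (adjusted p = 0.000127) and LYS12, homoisocitrate dehydrogenase, a ratio of 0.82 (adjusted p = 0.000227). LYS4 had fallen in WT by 1.63 at that time.

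Of 6 genes of polyamine and pyrimidine synthesis, which draw on ornithine or carbamoyl phosphate, 5 fell in WT at 15 min and 5 fell in eco1-W216G, beside 36.4% and 26.8% of all probe sets. URA1 and URA4 of pyrimidine synthesis stood 2.02 and 0.68 above WT in eco1-W216G at 15 min (adjusted p = 0.000158 and 0.0024 from limma). URA2, whose product makes carbamoyl phosphate for pyrimidines, did not pass between the strains at any time. These 3 were chosen after their values were seen. The control genes SCC2 and BAR1 were measured too. SCC2 did not pass between scc2-D730V and WT at any time, with differences from -0.29 to 0.38, and BAR1, deleted in all strains, had group means from 4.61 to 4.76 at 0 min and was lower in eco1-W216G than in WT by 0.22 at 15 min (adjusted p = 0.035 from limma).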
